A study of Drosophila melanogaster with 6 samples.

Results

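The innexins are the gap junction proteins of invertebrates, and the genes described here are those named zpg, ogre, Inx2, Inx3, Inx5, Inx6, Inx7 and shakB. Of these 8 genes, 7 had a probe set assigned to that gene alone, with 1 probe set each, among the 18769 probe sets of the arrays. No probe set was assigned to shakB, which was not analysed here. The family was taken up because zpg ranked at place 10 of 11982 genes by its increase in the clbn knock-out. The differences between genotypes are therefore given below as a description of these genes. The number that passed the fit across all probe sets is given beside the share of all probe sets that did, and nothing is supported with it.

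The series compared total RNA of Drosophila melanogaster embryos of 2 genotypes on Affymetrix arrays, which report the brightness of a set of short probes per transcript. The embryos were collected over 0 to 24 h, with flies kept at 25 °C. The clbn knock-out group had 3 arrays and the w1118 group, labelled wild type, had 3 arrays, and the labels give w1118 as the strain background of both. The labels do not describe the knock-out allele, a backcross or the age of the parents. Whether the samples within a genotype were collected separately is not stated either, and the spread quoted below may be technical in part. Clbn (Caliban) belongs to the family of human NEMF, which acts on stalled ribosomes.

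Innexins assemble into channels that pass ions and small molecules directly between the cytoplasms of neighbouring cells. Zpg, named for zero population growth and also called innexin 4, is the germline member. It couples germ cells to the somatic cells of the gonad, and flies without it lose their early differentiating germ cells. The other members work mainly in somatic tissues: Inx2 and Inx3 form mixed channels in embryonic epithelia, Inx2 and ogre act in glia, and shakB forms electrical synapses between neurons. They are called the somatic innexins here, although Inx2 is also known in the somatic cells that face the germ line.

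All 6 arrays had similar value distributions, with medians between 6.17 and 6.36 and the first quartile between 4.28 and 4.36 on the log2 scale. Clbn itself lay at 5.42, 5.27 and 5.14 in the knock-out, against 7.86, 8.25 and 8.44 in w1118. Where the probes lie relative to the deleted part of Clbn was not analysed here. Knock-out array 1 stood apart in the Affymetrix control probe sets, with a mean 3′ minus 5′ difference of 1.24 log2 for actin, eIF-4a and GAPDH, against 0.667 to 0.779 on the other 5 arrays. Markers of late embryonic tissue were present, since 12 of 12 muscle genes and 21 of 24 cuticle genes had means above the median of all probe sets. Of 20 genes of male germ cell differentiation, 5 had means above that median.

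The germline innexin zpg (CG10125, on chromosome arm 3L) was higher in every knock-out array than in any w1118 array. The knock-out arrays read 7.83, 7.24 and 6.64 on the log2 scale. The w1118 arrays read 5.23, 5.70 and 5.45. The lowest knock-out value lay 0.94 above the highest w1118 value, so the genotypes did not overlap. The mean was 7.23 ± 0.59 in the knock-out and 5.46 ± 0.24 in w1118 (SD, n = 3 each). The knock-out minus w1118 difference was 1.77 log2 (SE 0.27), or 3.42-fold. The w1118 values lay below the median of each array, and the size of a fold from so low a level is uncertain.

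The knock-out arrays themselves spread over 1.18 log2 in zpg, against 0.47 in w1118. This is wide for these arrays: the pooled SD within genotypes was 0.45, above that of 98.6% of all probe sets, whose median SD was 0.11. The highest zpg value was that of knock-out array 1, the array with the largest 3′ minus 5′ difference of the controls. Without that array the log2 difference of zpg was 1.48, and over all 6 ways of leaving out 1 array it ranged from 1.48 to 2.07. Between samples of the same replicate number the knock-out exceeded w1118 by 2.60 in pair 1, 1.53 in pair 2 and 1.19 in pair 3. In whole embryos, more germ cells and more zpg RNA per germ cell cannot be told apart.

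**Figure D1:**
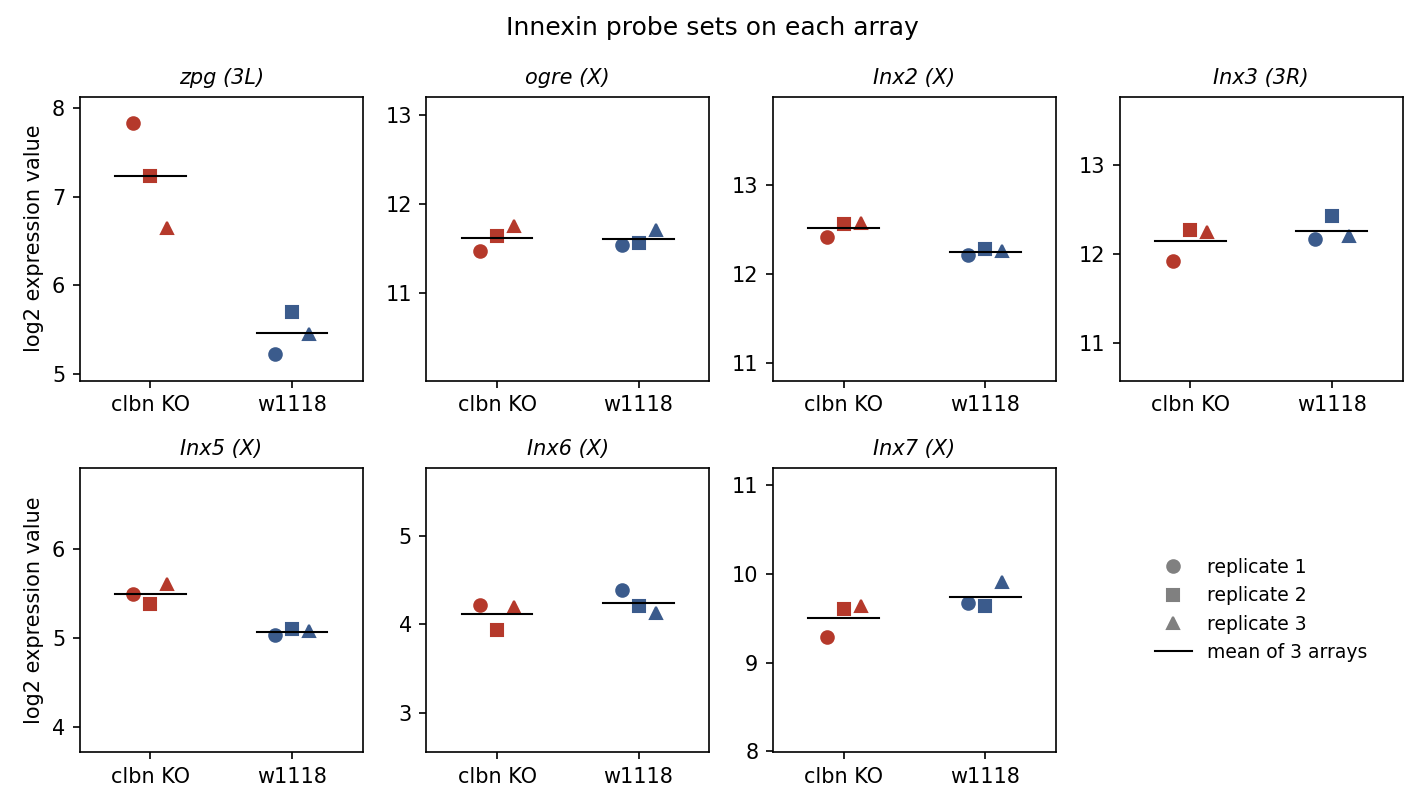
Log2 expression values of the 7 innexin probe sets on each array, with the clbn knock-out left and w1118 right in each panel; symbols give the replicate number, horizontal lines the mean of 3 arrays, and every panel spans the same 3.2 log2 units. The zpg arrays of the knock-out lie between 6.64 and 7.83, all above those of w1118, while ogre, Inx3, Inx6 and Inx7 overlap between genotypes.

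Among the somatic innexins the differences were smaller. Inx2 (CG4590, on X), which builds channels in the epidermis, the foregut and glia, read 12.42, 12.57 and 12.58 in the knock-out. In w1118 it read 12.22, 12.28 and 12.26. The genotypes did not overlap, but the gap between them was 0.13, and the log2 difference was 0.27 (SE 0.08), or 1.20-fold. All of these values lay far above the first quartile, so that Inx2 was clearly above the dim end of the arrays in both genotypes.

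Inx3 (CG1448, on 3R), the partner of Inx2 in mixed epithelial channels, did not follow it. Its values were 11.93, 12.27 and 12.25 in the knock-out, against 12.16, 12.42 and 12.20 in w1118. These ranges overlap, and the difference of −0.12 (SE 0.12) was no larger than the spread between arrays; with array weights it was 0.01. Knock-out array 1 held the lowest Inx3 value; the difference was −0.00399 without it and −0.04 without w1118 array 2.

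For ogre (CG3039, on X), also called innexin 1 and known for its part in the developing optic lobe and in glia, the genotypes overlapped throughout. The knock-out arrays read 11.47, 11.64 and 11.76, and the w1118 arrays read 11.54, 11.57 and 11.71. The log2 difference of 0.01 (SE 0.10) gives 1.01-fold; it lay between −0.06 and 0.09 with an array left out. Its probe set carries the suffix that Affymetrix gives to sets able to hybridise transcripts of more than a single gene.

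Inx7 (CG2977, on X), known from the embryonic nervous system and from memory circuits of the adult brain, had values of 9.28, 9.60 and 9.63 in the knock-out. Its w1118 values were 9.67, 9.63 and 9.91. The genotypes overlapped by a narrow margin, and the difference was −0.23 (SE 0.12). The differences within the 3 same-numbered pairs were −0.39, −0.03 and −0.27, all below 0. Knock-out array 1 held the lowest Inx7 value and w1118 array 3 the highest; the difference was −0.12 without that knock-out array and −0.15 without w1118 array 3.

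Both remaining members were dim. Inx6 (CG17063, on X), which pairs with Inx7 in memory circuits of the adult brain, read 4.22, 3.94 and 4.20 in the knock-out and 4.39, 4.20 and 4.12 in w1118. These values lie around the first quartile of the arrays, where signal and background cannot be separated without detection calls, and the genotypes overlapped (log2 difference −0.12, SE 0.11). That difference was −0.03 without knock-out array 2, −0.04 without w1118 array 1 and −0.24 with array weights.

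Inx5 (CG7537, on X) was higher in the knock-out on every array, at 5.49, 5.38 and 5.60, against 5.03, 5.10 and 5.07 in w1118. The genotypes were separated by 0.28, and the log2 difference was 0.42 (SE 0.08), or 1.34-fold. The spread of the w1118 arrays, 0.04 (SD, n = 3), was small. Inx5 lay at place 404 of 11982 genes by its increase, and the size of a fold at so low a level is uncertain.

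By the limma fit across all probe sets, 2 of the 7 innexin probe sets passed an adjusted p of 0.05, zpg and Inx5, both higher in the knock-out; across the arrays 668 of 18769 (3.56%) passed. The genotypes did not overlap for 3 of the 7, with the knock-out higher in each; this held for 24.9% of all probe sets, or 13% with the knock-out higher. Because zpg was chosen by this same contrast, nothing is read from these counts. They also depend on single arrays. Zpg no longer passed without w1118 array 1, w1118 array 3 or knock-out array 2, and Inx5 passed in just 1 of the 6 fits that left out an array, the fit without knock-out array 2. Without w1118 array 1 or w1118 array 3 the count was 0 of 7, with 190 and 256 probe sets passing across the arrays. Inx2 passed with array weights and with a variance prior that follows the level, which brought the count to 3.

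**Figure D2:**
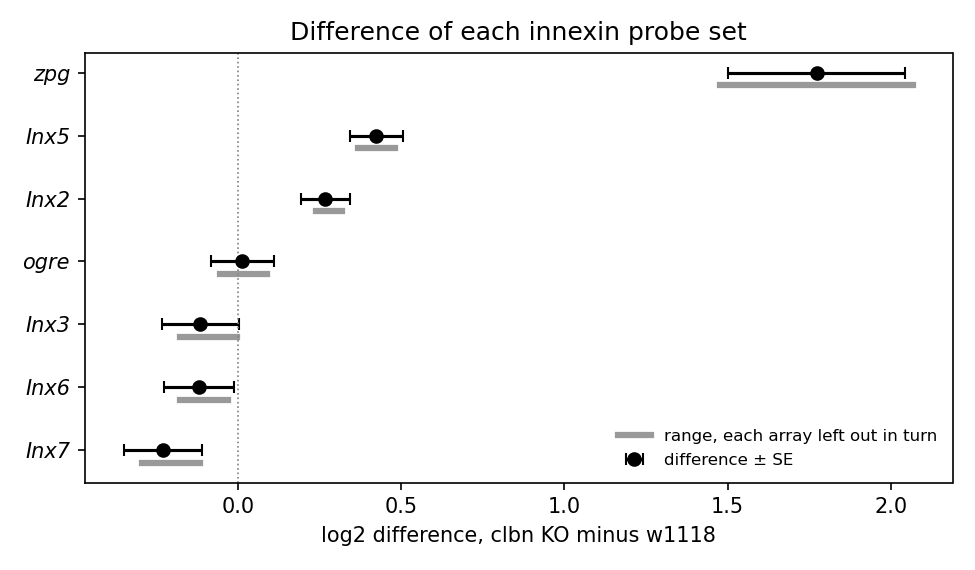
Log2 difference, clbn knock-out minus w1118, of each innexin probe set with its standard error (points and bars), and the range of that difference when each of the 6 arrays is left out in turn (grey bars). Zpg lies between 1.48 and 2.07, Inx5 and Inx2 stay above 0, and the other 4 lie close to 0 or below it.

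Set beside each other per array, zpg stood apart from the mean of the somatic innexins. That mean covers knock-out minus w1118 differences of both signs. They were 0.42 for Inx5, 0.27 for Inx2, 0.01 for ogre, −0.12 for Inx3, −0.12 for Inx6 and −0.23 for Inx7. As deviations from the mean of the 6 arrays, zpg stood at 1.48, 0.89 and 0.29 in the knock-out and at −1.12, −0.65 and −0.89 in w1118. The mean of the 6 somatic innexins stood at −0.08, 0.02 and 0.12 in the knock-out and at −0.05, −0.01 and −0.00 in w1118. Zpg was thus highest in knock-out array 1, where the somatic mean was lowest. The knock-out minus w1118 difference was 1.77 for zpg and 0.04 for the somatic mean, which leaves 1.73 between them. It was 1.39 without knock-out array 1, and between 1.39 and 2.08 over the 6 left-out arrays. These values describe how far zpg stood apart from its family in these samples and are not a test, since zpg was selected for its difference.

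Among the innexins, the profiles over the 6 arrays that lay closest were those of Inx2 and Inx5, with a root mean square difference of 0.11 log2. Ogre and Inx7 followed at 0.13, and ogre and Inx3 at 0.14. The distances from zpg to the other members were 0.78 to 1.11, with Inx5 nearest and Inx7 farthest. In the RefSeq gene table Inx7 and Inx2 are direct neighbours on X with ogre 1 protein-coding gene away. Among these neighbours, ogre and Inx7 stood at 0.13 and ogre and Inx2 at 0.14, while Inx2 and Inx7 stood at 0.27.

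The 5 other genes whose profiles lay nearest to that of zpg were Rbm13 on X, hng3 on 3L, naz on 3R, CG34437 on 3R and UQCR-11 on 3L, at distances of 0.26, 0.26, 0.26, 0.28 and 0.28 over 6 arrays. UQCR-11 encodes a subunit of respiratory complex III. Rbm13, the nearest, read 9.31, 8.91 and 8.89 in the knock-out, against 7.38, 7.57 and 7.35 in w1118. Rbm13, naz and UQCR-11, like zpg, had their lowest knock-out value in array 3 and their highest w1118 value in array 2. These were 7.05 and 6.19 for naz, and 6.17 and 5.18 for UQCR-11. Hng3 and CG34437 did not have both. The measure takes in the step between genotypes, which all 5 share with zpg.

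Zpg lies on 3L, where 181 of 2344 measured genes (7.72%) passed the threshold, while Inx3 is on 3R (196 of 2974, or 6.59%) and the other 5 measured innexins are on X (38 of 1873, or 2.03%). Of the 20 measured genes closest to zpg in gene order, 10 to either side, 2 passed, beside 4.51% of all genes, and both were lower in the knock-out. Sfl, which encodes an enzyme that sulphates heparan chains, averaged 7.11 in the knock-out and 8.53 in w1118 (log2 difference −1.41, SE 0.24, limma adjusted p = 0.0229). SP1173 averaged 9.30 in the knock-out and 9.83 in w1118 (−0.53, SE 0.10, limma adjusted p = 0.0331). The genotypes did not overlap for 10 of the 20 neighbours, with differences of both signs, beside 24.9% of all probe sets. That share covers every probe set, whereas each neighbour was read from its brightest one. No such share over genes or over 3L is given here, so nothing is read from this count. The median over the 20 neighbours was −0.06, beside 0.02 over all genes, and the highest was Vps8 at 0.35. The direct neighbours ndl (0.11, SE 0.11) and axed (−0.17, SE 0.15) did not pass. The count of 2 was 1 without knock-out array 2 or knock-out array 3, and 0 without any single w1118 array.

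**Figure D3:**
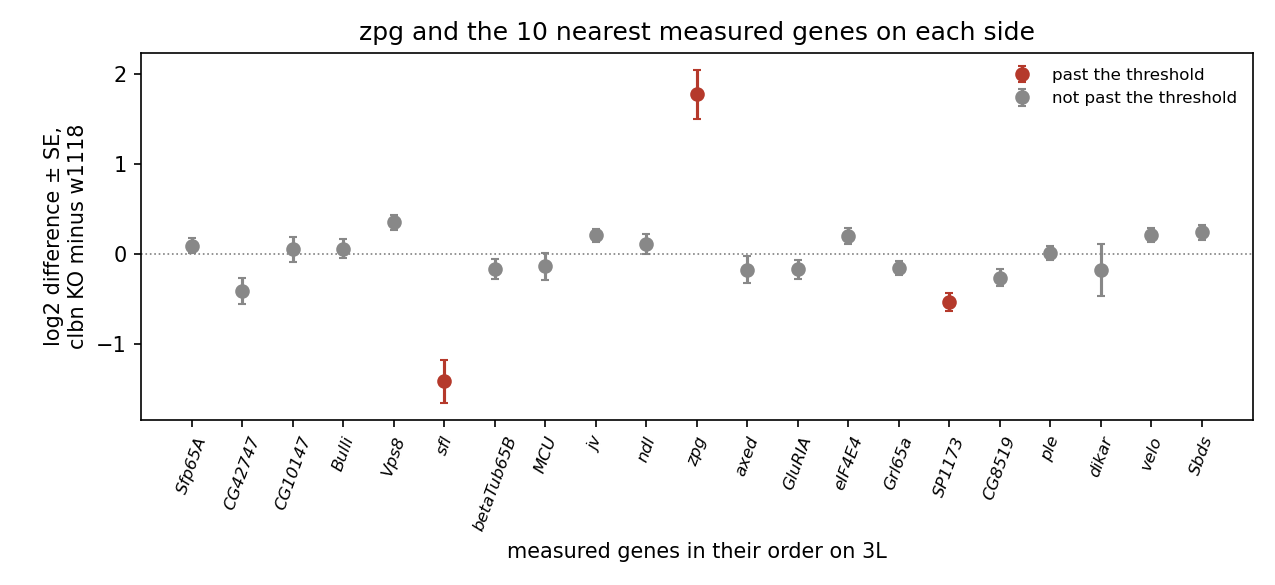
Log2 difference, clbn knock-out minus w1118, with its standard error for zpg and 20 measured genes around it in their order on 3L; red points passed an adjusted p of 0.05. Zpg at 1.77 stands alone above 20 genes that lie between −1.41 and 0.35.

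Genes known from germ cells, where zpg is expressed, were compared as a list. In whole embryos the tissue behind their values was not resolved, so the list is not a measure of germ cell content. Of 25 measured genes, 22 had positive differences and 2 passed the threshold, both higher in the knock-out (beside 1.88% of all genes passing in that direction). By limma, 10 of the 25 had an unadjusted p under 0.05. The share of all genes under that unadjusted cut is not given here. Nothing is therefore read from this count or from the unadjusted counts of the lists below. The genotypes did not overlap for 11 of the 25, beside 24.9% of all probe sets. The knock-out was higher in 9 of these, beside 13% of all probe sets. Both shares cover every probe set, whereas each listed gene was read from its brightest one. Shares over genes are not given here, so nothing is read from these counts. The median log2 difference was 0.18, beside 0.02 over all genes. The piRNA pathway gene mael averaged 10.14 ± 0.26 in the knock-out and 9.22 ± 0.14 in w1118 (SD, n = 3 each; log2 difference 0.92, SE 0.14, limma adjusted p = 0.0139). Qin, another piRNA pathway gene, was read from the brighter of its 2 probe sets, and its means lay below the median of every array. It averaged 5.52 ± 0.06 in the knock-out and 4.86 ± 0.16 in w1118 (0.67, SE 0.09, limma adjusted p = 0.0109). Defining germ cell genes that did not pass were the helicase gene vas at 6.48, 6.43 and 6.45 in the knock-out, against 6.09, 6.41 and 6.27 in w1118, and the pole plasm organiser osk at 7.03, 6.76 and 6.27 in the knock-out, against 6.80, 7.06 and 6.16 in w1118. The vas values did not overlap between the genotypes, and the osk values did. The pole cell genes nos and pgc were not analysed here. The count of 2 fell to 0 without w1118 array 1, to 1 without w1118 array 3 and to 1 with dim probe sets left out.

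Relative to the mean of the 6 arrays, the list mean stood at 0.27, 0.08 and −0.04 in the knock-out and at −0.09, 0.05 and −0.28 in w1118. The genotypes overlapped, and knock-out array 1 was highest, as it was for zpg. The summed linear signal of the 25 genes, in arbitrary units after undoing the log2 scale, ranged from 13819 to 14970 in the knock-out and from 11948 to 12999 in w1118. This sum is weighted toward the brightest genes, whereas each gene counts alike in the list mean. Without knock-out array 1 the median was 0.13, with 20 of 25 positive. The part of germ cell content in the zpg difference was not tested.

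**Figure D4:**
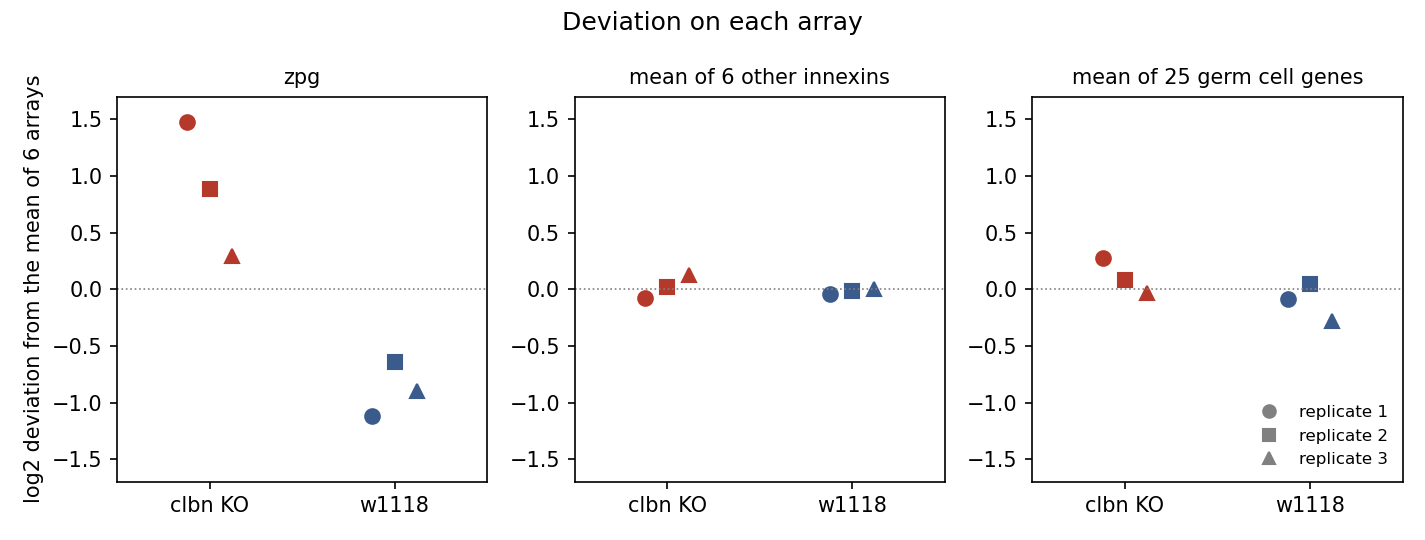
Deviation of each array from the mean of the 6 arrays, in log2 units, for zpg, for the mean of the 6 other innexins and for the mean of 25 germ cell genes, with the clbn knock-out left of w1118 and symbols for the replicate number. Zpg runs from −1.12 to 1.48, the other innexins from −0.08 to 0.12, and the germ cell genes from −0.28 to 0.27.

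The other lists tied to germ cells held at most 2 genes past the threshold each. Of 14 genes of germline stem cells and early cysts, the stage at which zpg is needed, limma passed 0, with 2 at an unadjusted p under 0.05, and the median was 0.01, or 0.06 without knock-out array 1. The differentiation factor bam averaged 7.77 ± 0.23 in the knock-out and 7.80 ± 0.33 in w1118. Of 9 genes of the somatic gonad, limma passed 0, with 0 at an unadjusted p under 0.05, and the median was −0.00, or 0.04 without knock-out array 1. Means lay above the median of all probe sets for 13 of the 14 stem cell and cyst genes and 8 of the 9 gonad genes. In whole embryos the tissue behind these values was not resolved. Over all genes 1.88% passed as higher and 2.63% as lower. Of 11 genes of meiosis and the synaptonemal complex 2 rose: corolla averaged 8.38 in the knock-out and 6.48 in w1118 (limma adjusted p = 5.21e-05), and c(3)G averaged 8.76 in the knock-out and 8.22 in w1118 (limma adjusted p = 0.0299). This count was 1 when any knock-out array, w1118 array 1 or w1118 array 3 was left out. Of 20 genes of male germ cell differentiation, Tektin-C, a structural gene of cilia and flagella, rose by 3.37 log2 (limma adjusted p = 3.52e-06) and the translation regulator bol had a difference of −0.49 (limma adjusted p = 0.0168), while the median was −0.00, or −0.03 without knock-out array 1. That count was 1 without knock-out array 3, w1118 array 1 or w1118 array 3. The corolla and Tektin-C increases were known before these lists were drawn up.

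The junction genes of the epithelia in which the somatic innexins work are given beside the 4.51% of all genes that passed in either direction. Of 24 septate junction genes, which seal these epithelia, limma passed 0, with 2 at an unadjusted p under 0.05 and a median of −0.07, or −0.02 without knock-out array 1. Of 15 adherens junction and polarity genes 1 fell, the polarity scaffold gene Patj, which averaged 8.85 in the knock-out and 9.26 in w1118 (limma adjusted p = 0.0487); it did not pass when any single array was left out, with median centring, or with the variance prior that follows the level. Of 8 foregut and proventriculus genes, the tissue in which Inx2 is best known, limma passed 0, with 0 at an unadjusted p under 0.05 and a median of −0.01, or 0.05 without knock-out array 1.

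Lists of tissues that differentiate late in embryogenesis had medians below 0, and no innexin passed the threshold in that direction. Among 19 neuronal genes 18 had negative differences, with a median of −0.36, and the sodium pump gene nrv3 averaged 10.06 in the knock-out and 10.58 in w1118 (limma adjusted p = 0.0463). With the replicate number as a block 5 of the 19 passed, all lower. That fit passed 978 probe sets, against 668 in the main fit, and its share of genes passing as lower is not given here. In the main fit nrv3 did not pass without knock-out array 2, knock-out array 3 or any w1118 array. Of 14 glial genes limma passed 0, with 5 at an unadjusted p under 0.05 and a median of −0.11, or −0.05 without knock-out array 1. In the cuticle list 10 of 24 fell (median −0.43), among them genes for cuticle proteins, while 3 of the 24 had positive differences. The largest of these was Cpr67Fa2, which averaged 8.64 in the knock-out and 7.79 in w1118. Its genotypes did not overlap, but it did not pass (0.85, SE 0.20, limma adjusted p = 0.065). Cpr67Fa1 fell by 2.01, Cpr100A fell by 1.75, TwdlQ fell by 1.36 and Cpr65Av fell by 1.35 log2. In the muscle list 5 of 12 fell (median −0.61), and 9 of the 12 fell with the replicate block. The actin gene Act87E fell by 0.85, the titin-like sls fell by 0.71, the paramyosin gene Prm fell by 0.61 and the myosin light chain gene Mlc2 fell by 0.60 log2. For comparison, 2.63% of all genes passed in the lower direction in the main fit, which has no block. All 12 lists were drawn up with earlier results of these data known, so nothing is read from these counts beside that share.

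These list means moved with knock-out array 1. They stood in that array at −0.38 for neurons, −0.39 for cuticle and −0.48 for muscle, and between −0.20 and −0.01 in the other knock-out arrays. Without it the medians were −0.16 for neurons, −0.35 for cuticle and −0.47 for muscle. Leaving out an array gave 4 to 7 cuticle genes and 2 to 4 muscle genes, and both counts were more than 1.5 times smaller without knock-out array 2, knock-out array 3 or any w1118 array. The w1118 ranges of the list means were 0.09 to 0.28 for neurons, 0.15 to 0.36 for cuticle and 0.20 to 0.40 for muscle. The summed linear signal was 6530 to 8086 in the knock-out and 8868 to 10359 in w1118 for neurons, 28776 to 35299 in the knock-out and 40702 to 47539 in w1118 for cuticle, and 34169 to 39807 in the knock-out and 50531 to 55913 in w1118 for muscle. The part of embryo age or tissue makeup in the innexin differences was not tested.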

How the data were processed

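The deposited series table holds log2 values of 18952 probe sets, 183 of them Affymetrix controls, for 6 arrays. That the authors' values are log2 was read from their range; the sources used here do not state how they were corrected for background, summarised or normalised, and the submitters' processing notes name affy without a version. The arrays were not normalised again. No count of molecules underlies an array value, and the precision is limited by the 3 arrays of each genotype.

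Gene names came from the platform's annotation table, in which 13647 probe sets had 1 symbol, 402 had several and 4720 were not listed. Chromosome arms and gene order came from the RefSeq table of assembly Release 6 plus ISO1 MT, matched by gene ID for 13544 probe sets. No coordinates are printed, since the sources used here name no build for the array. In 2 cases a list name was matched through a synonym (bark and Obsc), and the name don was left unmatched because its synonym points to another gene.

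Differences were fitted with limma 3.58.1 in R 4.3.3 (lmFit, eBayes, knock-out minus w1118, no covariate), with Benjamini-Hochberg adjustment over 18769 probe sets and a threshold of 0.05. The procedure was tested on simulated data. In lists and in gene order, each of 11982 genes was read from its brightest probe set on average. Among the listed genes named as past the threshold, qin and Prm had 2 probe sets each, and bol and sls had 3 each. The values of their other probe sets are not given here. Tables and plots were made in Python 3.11.15 with pandas 2.3.3, numpy 2.4.6 and matplotlib 3.10.9.

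Same-numbered samples of the genotypes deviated together from their group means. Their correlations were 0.25, 0.23 and 0.39 over all probe sets, against −0.33 to 0.09 for other pairs. The deviations within a genotype cancel over its arrays, so these correlations are not independent of each other. The main fit did not use the replicate numbers, and a fit with the replicate number as a block was run as an alternative. The other alternatives were median centring, quantile normalisation, array weights, a variance prior that follows the level, a filter on dim probe sets, the mean over a gene's probe sets, a somatic set without Inx5, and each array left out in turn.

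The genes named follow a rule: every innexin probe set, Clbn, the 5 genes nearest to zpg in profile, up to 4 genes of largest difference among those past the threshold in each of the 12 lists, and such genes among the neighbours of zpg. Vas, osk, bam, Cpr67Fa2, Vps8, ndl and axed were named outside it, after their values were seen. The members, lists and tests were chosen with earlier results of these data known. No list was tested as a set.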

Additional observations from a re-analysis of the deposited data

How the results depend on the processing

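The limits are 3 arrays per genotype, low values that cannot be told from background and a normalisation that is not stated. The zpg difference was 1.48 to 2.07 over the 12 other fits; its sign follows from the choice of zpg, whose genotypes do not overlap, and is no sign of stability. The excess of zpg over the somatic mean was 1.66 to 1.81 in the settings that kept every array, and 1.39 to 2.08 with an array left out. Each measured innexin had 1 probe set, so taking the brightest probe set changes nothing and was not run. The number of innexin probe sets past the threshold was 2 with the replicate block (978 over all probe sets, against 668 without it), 1 of 5 when dim probe sets were left out, a filter that removes Inx5 and Inx6, and 0 to 1 with an array left out. Zpg passed the dim filter through its knock-out values: its mean over all arrays was 6.35, with 7.23 in the knock-out and 5.46 in w1118, so this setting says nothing on stability. The replicate block changed no innexin call. Over all probe sets the count was 1539 with array weights and 190 to 607 with an array left out. Of the 192 listed genes 23 passed, 8 to 17 with an array left out, and of the neighbours of zpg 0 to 2. In the settings that kept every array, the genes past the threshold numbered 1 to 5 for germ cells (5 with array weights), 1 to 5 for neurons, 5 to 9 for muscle, 0 to 1 for adherens junctions and 0 to 1 for germline stem cells. The cause of these shifts was not tested. Among single innexins Inx2 moved by more than its spread, to 0.34, with median centring.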
